A study of Mus musculus with 12 samples.

Results

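The genes described are 10 components of insulin and insulin-like growth factor (IGF) signalling, *Igf1*, *Igfbp3*, *Insr*, *Igf1r*, *Irs1*, *Irs2*, *Pik3r1*, *Akt2*, *Grb10* and *Grb14*. They were chosen by name, and every probe whose RefSeq accession belongs to one of them was taken, which gave 18 of the 55681 probes on the array outside the controls and 10 of its 20660 genes with a symbol. RNA of subcutaneous white adipose tissue (scWAT) and of brown adipose tissue (BAT) was measured on 12 single-colour Agilent arrays, with 3 arrays for each tissue of wild-type (WT) mice and 3 for each tissue of Lr11 -/- mice. All groups came from male C57Bl6/J mice aged 12 weeks that were fed a high-fat diet with 60% of its calories from fat, which the labels describe both as given for 4 weeks and as given from weaning. The knockouts lack *Lr11* (gene symbol *Sorl1*), a sorting receptor of the LDL receptor family, on this background and were set against WT littermates. Whether the scWAT and BAT samples came from the same mice, and whether tissue was pooled, is not given in the labels.

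Insulin and IGF1 bind receptor tyrosine kinases at the cell surface, and the activated receptors phosphorylate the adaptor proteins IRS1 and IRS2. These recruit PI3-kinase, whose lipid product brings AKT to the membrane, and in adipocytes AKT2 moves the glucose transporter GLUT4 to the surface. In fat the pathway drives glucose uptake and lipid storage and restrains lipolysis. GRB10 and GRB14 bind the active receptors and hold their kinases back, and IGFBP3 carries IGF1 outside the cell.

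Each level below is the log2 intensity of a probe minus the 75th percentile of its array, so that a level of 0 is the brightness of the 75th percentile and a difference of 1 is a doubling. For a gene with several probes the values are those of its brightest probe. Probes differ in how well they bind, so a level is compared between groups and not between genes. All 18 probes were well above background on all 12 arrays. The array number, 3 per group, limits the precision, and the labels do not say that each array held a separate mouse, so that the p-values measure the spread between these samples. The test used 1 spread per probe for all 4 groups, so a comparison within BAT also carried the spread of scWAT.

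The genotype labels held on the arrays. *Sorl1* lay between 0.11 and 1.21 on the 6 WT arrays and between -3.93 and -2.45 on the 6 Lr11 -/- arrays. The tissues were less even. The mean of 6 brown fat markers, among them *Ucp1*, was -3.88 to 1.84 in WT scWAT and 5.92 to 7.15 over the 6 BAT arrays, whereas in Lr11 -/- scWAT it was 2.78 in replicate 1 and 7.30 and 7.15 in replicates 2 and 3. These last 2 scWAT arrays thus stood at the level of BAT, and so did their *Ucp1* (9.75 and 10.05, against 9.45 to 10.07 in BAT). The mean of 8 skeletal muscle markers was 8.09 in WT scWAT replicate 3, 8.34 in Lr11 -/- scWAT replicate 1, 6.29 and 5.76 in WT BAT replicates 1 and 3 and 5.36 in Lr11 -/- BAT replicate 1, and below 0 on the other 7 arrays. All 8 muscle genes were well above background on these 5 arrays. The mean of 6 fat cell markers was lowest in WT scWAT replicate 2, at 3.93, against 5.91 to 7.83 elsewhere. Replicate 1 of each group came from an earlier array series, in which scWAT and BAT lay on different slides, and replicates 2 and 3 shared a slide of a later series.

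In WT mice, BAT had less *Igf1* and *Grb10* and more *Akt2* and *Grb14* mRNA than scWAT. These 4 of the 10 genes passed an adjusted p of 0.05, 2 in each direction, where 24.8% of all tested probes did. *Igf1* and *Grb10* differed by -2.92 and -2.38 on the log2 scale, and *Akt2* and *Grb14* by 1.60 and 2.58. Without scaling between arrays the split was 0 higher and 3 lower (*Igf1*, *Grb10* and *Igfbp3*), where 22.4% of all tested probes passed. *Akt2* at 1.28 and *Grb14* at 2.26 were then just outside the threshold (adjusted p = 0.077 and 0.053). No gene of the 10 passed the threshold between genotypes in either tissue, or between the depots of Lr11 -/- mice.

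The promoters of the 4 genes that differed between the WT depots are shown because these are the members whose transcripts passed the test. Each is the 250 bases before the RefSeq transcription start on build GRCm38.p6, written 5′ to 3′ on the gene's strand. Of the several starts listed for *Akt2* (4) and *Grb10* (2) the most upstream one was taken. Capitals mark every match, overlapping ones included, to 5 motifs searched on both strands. These were the GC box, with the letters GGGCGG, the CCAAT box, whose letters are its name, the TATA box, with the letters TATAAA, the E-box, with the letters CACGTG, and the FOXO element, with the letters GTAAACA, which is the core site of the transcription factors that AKT keeps out of the nucleus.
Igf1, chr10:87860861-87861110, plus strand: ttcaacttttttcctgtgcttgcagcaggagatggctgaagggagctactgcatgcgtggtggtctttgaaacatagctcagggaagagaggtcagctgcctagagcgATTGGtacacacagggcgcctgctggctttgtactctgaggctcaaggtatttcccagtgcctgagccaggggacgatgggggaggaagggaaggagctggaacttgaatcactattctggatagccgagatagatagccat
Akt2, chr7:27591302-27591551, plus strand: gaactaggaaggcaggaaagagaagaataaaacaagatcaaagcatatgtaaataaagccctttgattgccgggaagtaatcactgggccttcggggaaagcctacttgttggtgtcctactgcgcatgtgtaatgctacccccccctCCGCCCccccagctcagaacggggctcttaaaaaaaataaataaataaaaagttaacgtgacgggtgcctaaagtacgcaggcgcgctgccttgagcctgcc
Grb10, chr11:12037421-12037670, minus strand: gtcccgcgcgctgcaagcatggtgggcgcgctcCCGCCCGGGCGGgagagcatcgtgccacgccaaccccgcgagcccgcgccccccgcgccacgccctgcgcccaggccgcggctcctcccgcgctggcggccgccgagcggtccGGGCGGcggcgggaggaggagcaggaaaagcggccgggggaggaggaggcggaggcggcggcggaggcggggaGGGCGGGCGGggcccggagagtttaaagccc
Grb14, chr2:65022767-65023016, minus strand: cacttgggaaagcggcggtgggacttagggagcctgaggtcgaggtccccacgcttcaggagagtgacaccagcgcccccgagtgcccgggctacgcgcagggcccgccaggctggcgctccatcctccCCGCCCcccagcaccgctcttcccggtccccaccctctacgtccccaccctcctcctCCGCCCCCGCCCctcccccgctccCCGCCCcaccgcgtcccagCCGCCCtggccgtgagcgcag
The *Grb10* and *Grb14* windows each held 5 GC boxes, and that of *Akt2* held 1, where 32.7% of the 32841 promoters in the RefSeq table hold at least 1 in the same window. The *Igf1* window held no GC box and 1 CCAAT box, a motif found in 33.9% of promoters. It had 5 CpG dinucleotides, close to the median of 6, against 10 in *Akt2*, 24 in *Grb14* and 40 in *Grb10*. None of the 4 windows contained the FOXO element, which 3.17% of all promoters hold, and none contained the TATA box (12.4%) or the E-box (6.02%). The letters alone do not show whether a factor binds.

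*Igf1* encodes the IGF1 ligand, which fat cells and stromal cells secrete locally. Its levels in replicates 1 to 3 of WT mice were 4.64, 3.87 and 1.97 for scWAT and 1.01, 0.41 and 0.28 for BAT. For Lr11 -/- mice they were 3.39, 1.12 and 1.43 (scWAT) and 0.78, 1.33 and 0.91 (BAT). Every WT scWAT array was above every WT BAT array, and replicate 1 was the highest array of both scWAT groups. The WT depots differed by -2.92 (SE 0.69), which is 7.59-fold less in BAT (adjusted p = 0.015). The other 3 probes of the gene gave -2.86, -2.72 and -1.83, of which the dimmest, with -1.83, did not pass (adjusted p = 0.062). From the highest, the group means ran WT scWAT 3.49 ± 1.37, Lr11 -/- scWAT 1.98 ± 1.23, Lr11 -/- BAT 1.01 ± 0.29 and WT BAT 0.57 ± 0.39 (SD, n = 3), and no neighbours in that order differed by the test.

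With fewer cells of a type and less RNA per cell, a bulk array gives the same reading, and these cannot be told apart here. The mean of 6 stromal and fibroblast markers was 4.30 to 5.76 in WT scWAT, 2.67 to 4.01 in Lr11 -/- scWAT and 2.48 to 3.00 in BAT, with all 6 genes well above background on every array, so it was highest in the group in which *Igf1* was highest. The mean of 4 macrophage markers, of which 3 were well above background on each WT BAT array, was 1.13 to 2.53 in WT scWAT, 0.72 to 1.51 in Lr11 -/- scWAT and -0.16 to 0.47 in BAT. The part of these cells in the *Igf1* difference was not tested.

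*Igfbp3*, the main carrier of IGF1 in the circulation, had the widest spread within scWAT. The scWAT levels were -0.25, 2.55 and 0.94 for WT mice and 0.83, -3.01 and -2.32 for Lr11 -/- mice. The BAT levels were -1.05, -1.40 and -2.35 for WT mice and -1.22, -1.45 and -0.89 for Lr11 -/- mice. WT scWAT lay above WT BAT on every array, but the difference of -2.68 (SE 0.93) missed the threshold (adjusted p = 0.057). Of the 12 fits that left 1 array out, it passed in 3. These were without WT scWAT replicate 1 (-3.34, adjusted p = 0.029) and without replicate 1 or 2 of Lr11 -/- scWAT. The last 2 left the difference itself unmoved at -2.68 (adjusted p = 0.012 and 0.049). The shares of all probes called in the 3 fits were 31.9%, 29.6% and 21.7%, against 24.8% with all arrays. Over all 12 fits the difference ran from -3.34 to -1.95, with an adjusted p of up to 0.18.

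The receptors differed less. *Insr*, the insulin receptor, had levels of 0.48, -0.76 and 0.72 in WT scWAT, 1.12, 0.38 and 0.51 in Lr11 -/- scWAT, 0.19, 0.34 and 0.51 in WT BAT and 0.52, 0.28 and 0.64 in Lr11 -/- BAT. All 4 groups overlapped, and the range of its group means, 0.52, was the narrowest of the 10 genes. The WT depots differed by 0.20, with a 95% interval of -0.60 to 0.99, and the other 2 probes gave 0.29 and 0.55. *Igf1r*, the IGF1 receptor, had levels of -0.05, 1.51 and 1.55 in WT scWAT, 1.15, 0.07 and -0.78 in Lr11 -/- scWAT, -0.06, -0.01 and -0.40 in WT BAT and 0.10, -0.12 and -0.11 in Lr11 -/- BAT. Only WT scWAT replicate 1 kept the WT depots from separating, and their difference of -1.16 (SE 0.50) had an adjusted p of 0.11. Without that array it was -1.68 (adjusted p = 0.021), where 31.9% of all probes passed. Of the 12 fits that left 1 array out, *Igf1r* passed in that 1 only. Over these fits its difference ran from -1.68 to -0.88, with an adjusted p of up to 0.28.

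The adaptors IRS1 and IRS2 link the receptors to PI3-kinase. *Irs1* had levels of 1.57, 0.69 and 3.31 in WT scWAT, 3.22, 1.81 and 1.40 in Lr11 -/- scWAT, 1.68, 1.98 and 1.77 in WT BAT and 1.49, 1.63 and 1.20 in Lr11 -/- BAT. Its 2 highest arrays, WT scWAT replicate 3 and Lr11 -/- scWAT replicate 1, were the scWAT arrays with high skeletal muscle markers. In BAT the muscle-high arrays were not the highest of their groups. They stood at 1.68 and 1.77 against 1.98 in WT, and at 1.49 against 1.63 and 1.20 in Lr11 -/- mice. The part of the muscle content was not tested. Without the 5 arrays high in muscle markers, the WT depots differed by 0.85 in this gene, with WT BAT replicate 2 alone against WT scWAT replicates 1 and 2. *Irs2* had levels of 3.59, 2.67 and 3.90 in WT scWAT, 4.75, 3.35 and 3.36 in Lr11 -/- scWAT, 4.27, 4.27 and 3.05 in WT BAT and 3.38, 4.57 and 4.09 in Lr11 -/- BAT. The WT depots differed by -0.05 in *Irs1* (95% interval -1.39 to 1.30) and by 0.47 in *Irs2* (-0.66 to 1.61), so that neither difference was larger than the spread between arrays.

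Downstream of the adaptors, *Pik3r1*, which encodes the regulatory p85α subunit of PI3-kinase, had levels of 1.60, -0.26 and 0.40 in WT scWAT, 0.29, -0.13 and -0.44 in Lr11 -/- scWAT, 0.77, 0.45 and -0.59 in WT BAT and -0.73, 0.51 and -0.63 in Lr11 -/- BAT. Its groups overlapped throughout. *Akt2* had WT levels of 5.48, 3.67 and 5.39 in scWAT against 6.26, 6.56 and 6.53 in BAT. Its Lr11 -/- levels were 5.45, 6.23 and 6.32 in scWAT against 6.46, 6.33 and 6.43 in BAT. All 6 BAT arrays lay between 6.26 and 6.56, above every WT scWAT array. The WT depots differed by 1.60 (SE 0.43), or 3.04-fold (adjusted p = 0.023), and the other 2 probes gave 1.63 and 1.65, both past the threshold. From the highest, the means were 6.45 ± 0.17 in WT BAT, 6.41 ± 0.07 in Lr11 -/- BAT, 6 ± 0.48 in Lr11 -/- scWAT and 4.85 ± 1.02 in WT scWAT (SD, n = 3), with no call between neighbours. WT scWAT replicate 2, the array low in fat cell markers, had the lowest *Akt2*, and without it the difference was 1.01 (adjusted p = 0.033).

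The inhibitors *Grb10* and *Grb14* differed between the depots in opposite directions. *Grb10*, an imprinted gene, had WT levels of -1.11, 0.01 and -0.52 (scWAT) and -3.15, -3.10 and -2.50 (BAT). Its Lr11 -/- levels were -0.52, -2.56 and -2.89 (scWAT) and -3.43, -3.00 and -2.68 (BAT). WT scWAT thus exceeded BAT of both genotypes on every array, and the WT depots differed by -2.38 (SE 0.55), or 5.2-fold (adjusted p = 0.014). The means were -0.54 ± 0.56 in WT scWAT, -1.99 ± 1.28 in Lr11 -/- scWAT, -2.92 ± 0.36 in WT BAT and -3.04 ± 0.38 in Lr11 -/- BAT (SD, n = 3). With another background correction, normexp with an offset of 50, this dim probe gave -1.50 (adjusted p = 0.018).

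*Grb14* ran the other way. Its WT levels were 2.89, -0.19 and 0.71 (scWAT) and 3.81, 4.16 and 3.17 (BAT). Its Lr11 -/- levels were 0.75, 2.76 and 2.87 (scWAT) and 3.44, 3.63 and 3.53 (BAT). Each depot's arrays were apart from the other's within a genotype, and WT BAT exceeded WT scWAT by 2.58 (SE 0.74), or 5.96-fold (adjusted p = 0.030). The order of the means was 3.71 ± 0.50 in WT BAT, 3.53 ± 0.10 in Lr11 -/- BAT, 2.13 ± 1.19 in Lr11 -/- scWAT and 1.14 ± 1.58 in WT scWAT (SD, n = 3), again with no call between neighbours. The scWAT arrays with the highest *Grb14*, WT replicate 1 and Lr11 -/- replicates 2 and 3, were those with the 3 highest means of the fat cell markers among the 6 scWAT arrays, at 7.83, 6.99 and 7.19; the part of the fat cell content was not tested.

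**Figure D1:**
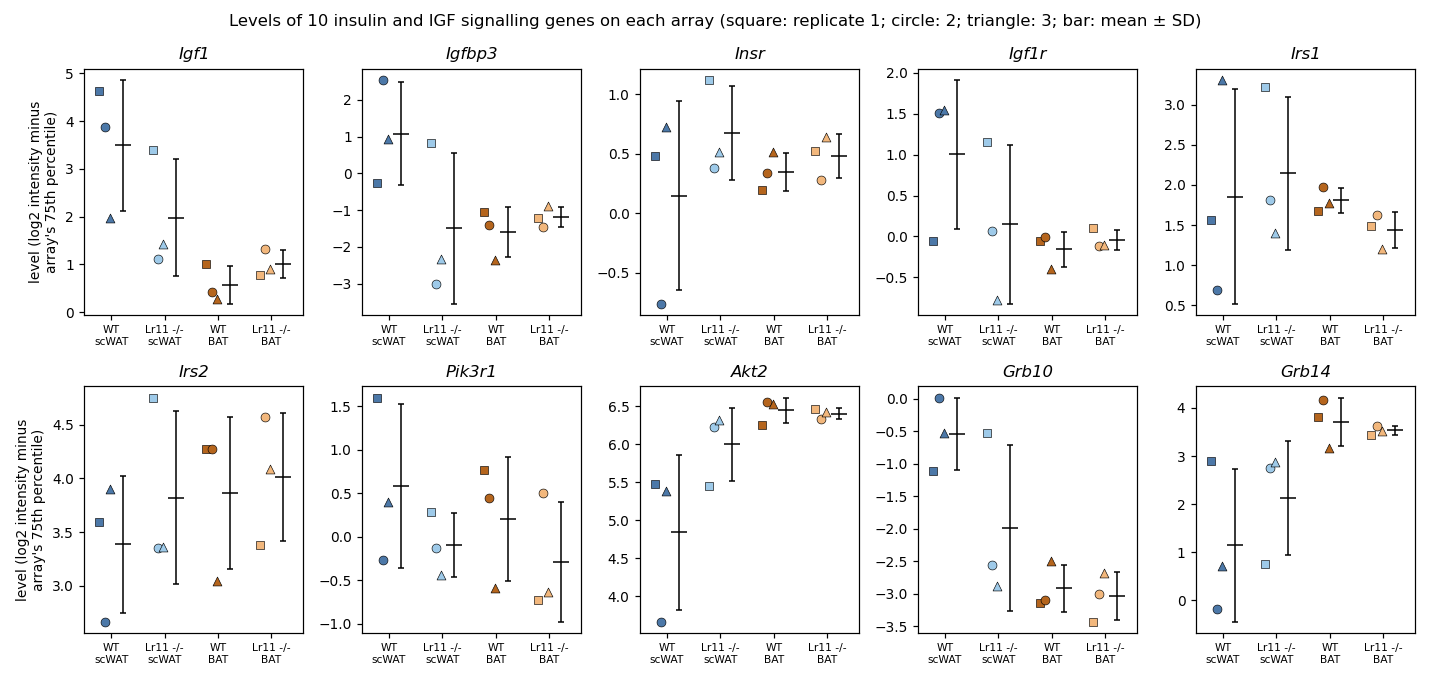
Level of each of the 10 genes (y axis, log2 intensity minus the array's 75th percentile, each panel on its own scale) in the 4 groups, with squares, circles and triangles for replicates 1, 2 and 3 and bars for the mean ± SD. *Igf1* and *Grb10* were highest in WT scWAT and *Akt2* and *Grb14* in BAT. Lr11 -/- scWAT replicates 2 and 3 lay apart from replicate 1 in several genes, among them *Igf1*, *Igfbp3*, *Irs1*, *Irs2*, *Grb10* and *Grb14*.

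Over the whole set, 5 of the 10 genes did not overlap between WT BAT and WT scWAT (*Igf1*, *Igfbp3*, *Akt2*, *Grb10* and *Grb14*), against 40.2% of all tested probes. The median difference of the 10 was -0.21, and that of all tested probes was 0.068. Both shares were somewhat above those of the array as a whole, and with 10 genes they show no more than the single genes do. By the exact permutation test, 3 arrays against 3 cannot give a p below 0.1, and each of these 5 genes gave 0.1.

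The 4 calls rested on few arrays. Without WT BAT replicate 2 none of the 10 genes passed (adjusted p of 0.054 for *Igf1*, 0.053 for *Grb10*, 0.078 for *Akt2* and 0.10 for *Grb14*), with differences of -2.85, -2.29, 1.55 and 2.35. Without WT BAT replicate 1 only *Igf1* did, *Grb10* standing at -2.26 (adjusted p = 0.050), *Akt2* at 1.70 (0.057) and *Grb14* at 2.53 (0.084). Without WT BAT replicate 3 *Akt2* was lost (1.56, adjusted p = 0.061), and without WT scWAT replicate 2 or 3 *Grb14* was (1.91 and 2.36, adjusted p = 0.096 and 0.067). Without WT scWAT replicate 1, on the other hand, 6 genes passed. The share of all tested probes called was 10.2% without WT BAT replicate 2, 12.1% without WT BAT replicate 1 and 31.9% without WT scWAT replicate 1. With all arrays it was 24.8%. It did not always move with the count among the 10 genes. Without WT scWAT replicate 3, 3 genes passed while the share was 27.8%. Without Lr11 -/- scWAT replicate 2, 5 passed while it was 21.7%. The direction of all 4 was the same in each of these fits.

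Within the array series the directions also held. In the later series alone, *Igf1* differed by -2.57, *Grb10* by -2.55, *Akt2* by 2.01 and *Grb14* by 3.40, all past the threshold, together with *Igfbp3* (-3.62) and *Igf1r* (-1.73), where 25.3% of all probes passed. In the earlier series, with 1 array per group and no test, the differences were -3.63, -2.04, 0.78 and 0.92, but there depot and slide cannot be told apart. With the slide as a block, under which 12.4% of all probes passed, only *Igf1* did (-2.34, adjusted p = 0.030), *Grb10* giving -2.00 (0.066), *Akt2* 1.66 (0.073) and *Grb14* 2.67 (0.085). Without the 5 arrays high in skeletal muscle markers, WT BAT replicate 2 alone stood against WT scWAT replicates 1 and 2. The differences of *Igf1*, *Grb10*, *Akt2* and *Grb14* were then -3.84, -2.55, 1.99 and 2.81, values that rest on that single BAT array. With the muscle mean as a covariate all 4 passed, and *Igfbp3* as well, where 28.9% of all probes did.

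**Figure D2:**
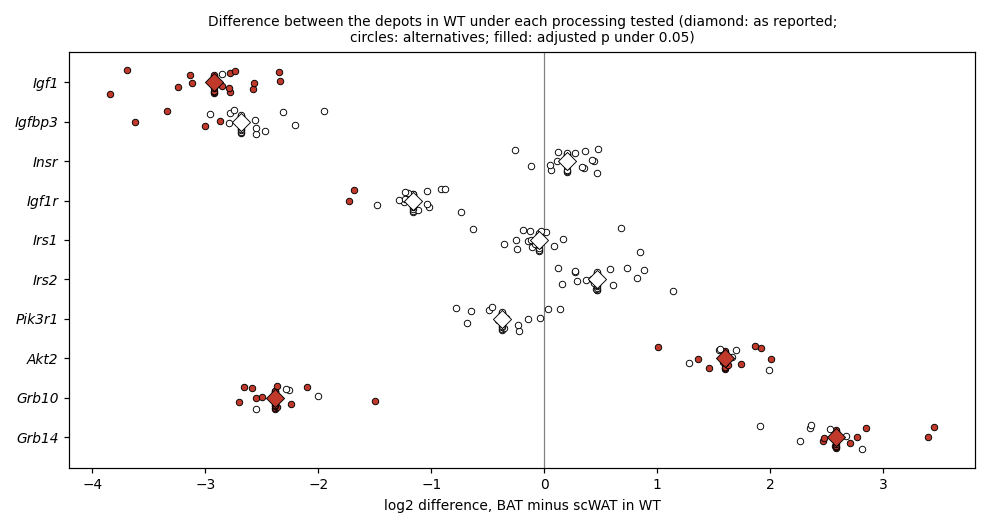
Difference between BAT and scWAT in WT (x axis, log2) for each of the 10 genes (y axis) as reported (diamonds) and under every alternative that gives a test (circles), filled where the adjusted p was under 0.05. All values of *Igf1* and *Grb10* lie below 0 and all values of *Akt2* and *Grb14* above it, though some fail the threshold.

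In Lr11 -/- mice none of the 10 genes passed the threshold in the depot comparison, where 0.0405% of all tested probes did. The 4 genes called in WT had values closer to 0 here, whereas *Irs1* differed by -0.70 against -0.05 in WT. The test of the change in the depot difference between genotypes called none of the 10 (adjusted p of 0.45 or more), so no gene was shown to differ less in Lr11 -/- mice. *Igf1* differed by -0.97 (95% interval -2.50 to 0.56), *Grb10* by -1.05 (-2.27 to 0.17), *Akt2* by 0.40 (-0.55 to 1.36) and *Grb14* by 1.41 (-0.23 to 3.05). The groups did not overlap in 2 of the 10 genes, *Akt2* and *Grb14*, against 23.2% of all tested probes. The values rested on which scWAT arrays were used. With Lr11 -/- scWAT replicates 2 and 3, those with brown fat markers at the level of BAT, left out together, the single remaining array gave -2.38 for *Igf1*, -2.52 for *Grb10*, 0.95 for *Akt2* and 2.78 for *Grb14*. *Grb10* then passed (adjusted p = 0.035), as did 3.07% of all probes, on the assumption that the lone array varied like the other groups. In the later series alone, which holds only those 2 scWAT arrays, the differences were -0.15, -0.12, 0.10 and 0.77.

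Between genotypes in scWAT, none of the 10 genes passed an adjusted p of 0.05, where 5.27% of all tested probes did. At an unadjusted p under 0.05 there were 3, *Igfbp3* (-2.58, SE 0.93), *Grb10* (-1.45, SE 0.55) and *Akt2* (1.16, SE 0.43), against 27.6% of all probes, so the share among the 10 was near the background. Their adjusted p-values were 0.11, 0.12 and 0.12. No brightest probe separated the genotypes, against 20.4% of all probes, though the other 2 *Akt2* probes did (1.18 and 1.08, adjusted p = 0.11 and 0.067). *Igf1* stood at -1.51 (95% interval -3.05 to 0.02), *Igf1r* at -0.86 (-1.97 to 0.26), *Grb14* at 0.99 (-0.65 to 2.63) and *Pik3r1* at -0.67 (-1.83 to 0.49), and *Insr*, *Irs1* and *Irs2* at 0.52, 0.29 and 0.43. The median over the 10 was -0.19 and over all probes 0.042.

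Several genes went opposite ways in the 2 array series in scWAT. In the later series alone, *Igfbp3* differed by -4.41 (adjusted p = 0.0082), *Grb10* differed by -2.47 (0.0071), *Igf1r* by -1.88 (0.013) and *Grb14* by 2.55 (0.012). These 4 of the 10 passed, where 22.6% of all tested probes did, against the 5.27% of all arrays together. In the earlier series, with 1 array of each genotype, the same genes differed by 1.07, 0.60, 1.20 and -2.14, each with the other sign. *Igf1* had the same sign in the earlier and the later series (-1.25 and -1.65), as had *Insr* (0.64 and 0.47), *Irs2* (1.16 and 0.07) and *Pik3r1* (-1.30 and -0.35). *Irs1* (1.65 and -0.39) and *Akt2* (-0.02 and 1.75) did not, and none of these 6 passed in the later series. In the earlier series the Lr11 -/- array carried the muscle markers and the WT array did not, and its brown fat mean was 2.78 against -0.62. In the later series it was the WT replicate 3 that carried them, and the brown fat means were 7.15 and 7.30 in Lr11 -/- against -3.88 and 1.84 in WT.

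Leaving out Lr11 -/- scWAT replicate 1 gave 3 calls, *Igfbp3* (-3.75, adjusted p = 0.0067), *Grb10* (-2.18, 0.0044) and *Igf1* (-2.22, 0.037), and leaving out WT scWAT replicate 3 gave 1, *Igf1* (-2.27, 0.036). The share of all probes called was 19.8% and 14.4% in these fits, so that the array as a whole gained calls along with the 10 genes, and it ran down to 0.00934% without Lr11 -/- scWAT replicate 3. Without the muscle-high arrays *Igf1* (-2.98) and *Grb10* (-2.18) passed, with 11.2% of all probes. Without Lr11 -/- scWAT replicates 2 and 3 together the values were near 0 for *Igf1* (-0.10), *Grb10* (0.02) and *Igfbp3* (-0.25). The remaining Lr11 -/- scWAT array was of the earlier series and stood against WT arrays of both, so brown fat level and series cannot be told apart there. Within the earlier series alone, with a single array of each genotype, *Igf1* differed by -1.25, *Grb10* by 0.60 and *Igfbp3* by 1.07. The part of the tissue make-up in these differences was not tested.

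**Figure D3:**
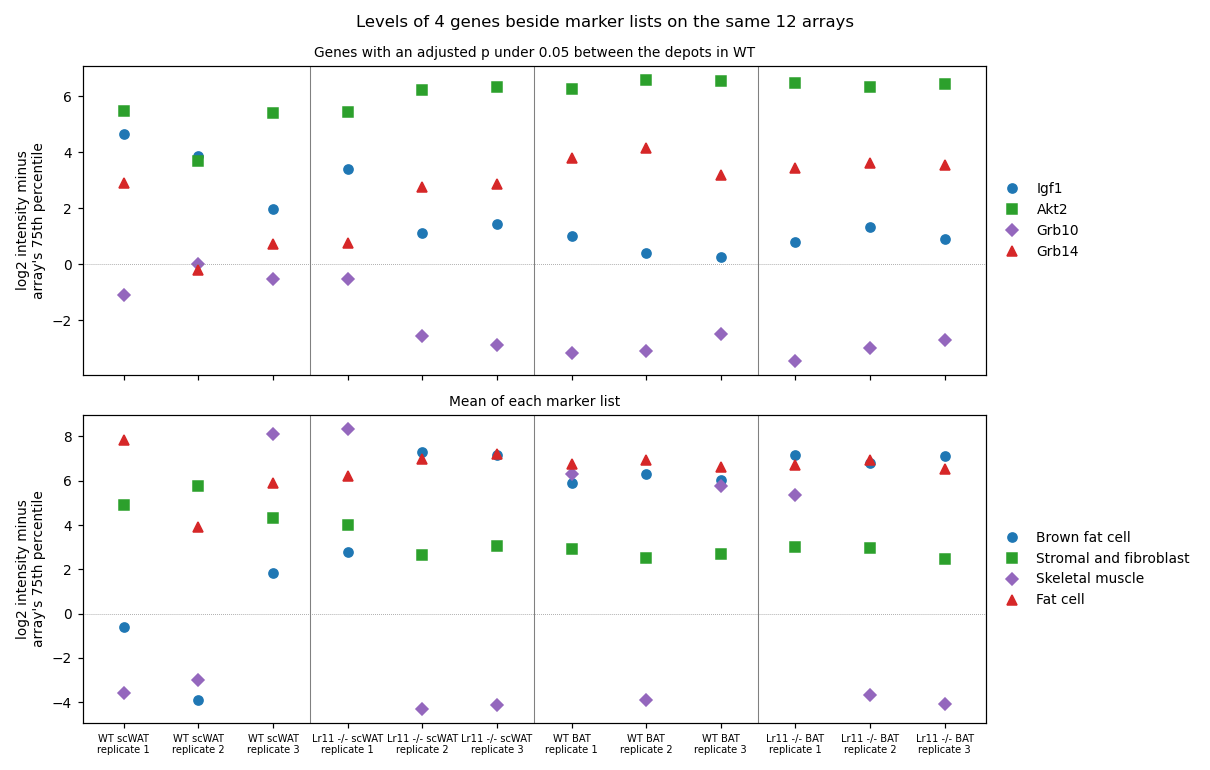
Levels of *Igf1*, *Akt2*, *Grb10* and *Grb14* (upper panel) and means of the brown fat, stromal, skeletal muscle and fat cell marker lists (lower panel) on the same 12 arrays, both as log2 intensity minus the array's 75th percentile. Heights of different genes are not comparable, while Lr11 -/- scWAT replicates 2 and 3 sit at the BAT arrays in *Grb10* and in the brown fat list, unlike replicate 1.

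Between genotypes in BAT, none of the 10 genes passed, where 0.0187% of all probes did, and none had an unadjusted p under 0.05, against 2.12%. The values lay between -0.50 (*Pik3r1*, 95% interval -1.65 to 0.66) and 0.44 (*Igf1*, -1.09 to 1.97), with a median of 0.04 against 0.039 for all probes. *Irs1* alone did not overlap between the genotypes (12% of all probes did not). It was 1.68 to 1.98 in WT and 1.20 to 1.63 in Lr11 -/- BAT on the brighter probe, and -0.37 was the difference on both of its probes. The narrowest interval, that of *Insr*, ran from -0.66 to 0.93, so equal levels were not shown. These intervals hold the spread of scWAT as well. The SD of *Insr* was 0.79 and 0.40 in WT and Lr11 -/- scWAT, against 0.16 and 0.18 in WT and Lr11 -/- BAT. With only the 2 BAT groups compared, none of the 10 passed either, where 0.0872% of all probes did.

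The difference between the genotype effects of scWAT and BAT was tested directly. None of the 10 genes passed it, nor did any probe on the array (0%), while 1 of the 10, *Igfbp3*, had an unadjusted p under 0.05 (-3.00, SE 1.31, adjusted p = 0.45) against 11% of all probes. Leaving out replicate 1 of Lr11 -/- scWAT brought it past the threshold (-4.16, adjusted p = 0.043), and so did the later series alone (-5.12, adjusted p = 0.043), fits in which 3.71% and 2.77% of all probes passed. *Igf1* followed with -1.95 (95% interval -4.12 to 0.21) and *Akt2* with 1.20 (-0.15 to 2.55). So no gene of the 10 was shown to respond differently to the loss of *Lr11* in the 2 tissues.

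**Figure D4:**
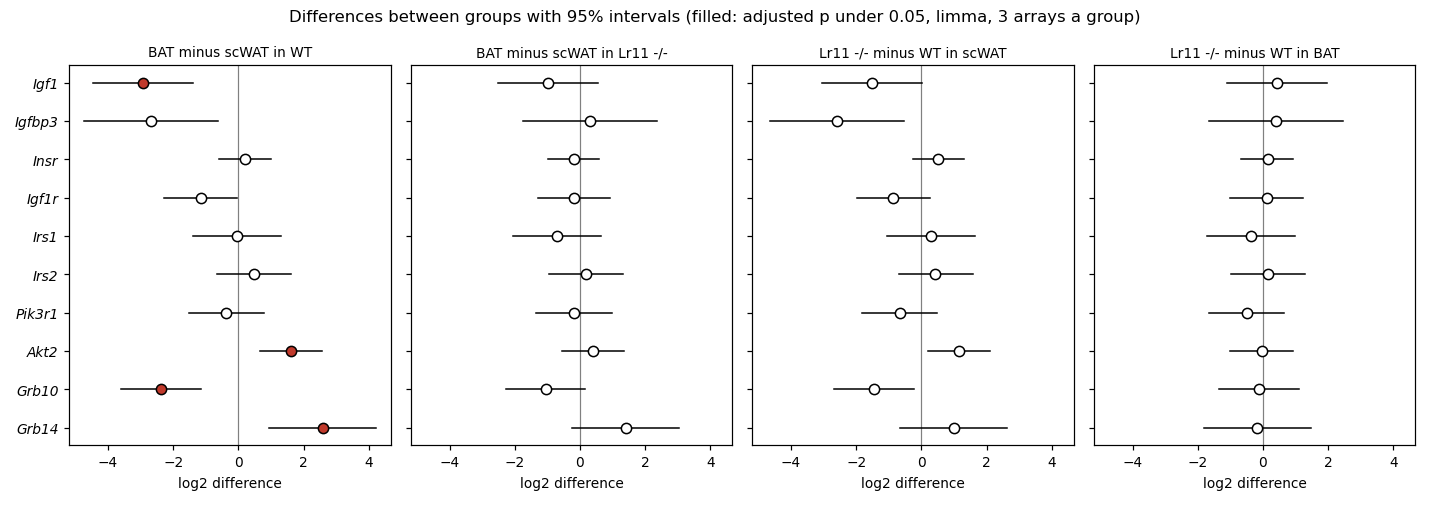
Log2 differences (x axis) of the 10 genes (y axis) in 4 comparisons, with 95% intervals as lines and filled points where the adjusted p was under 0.05. *Igf1*, *Akt2*, *Grb10* and *Grb14* are filled between the WT depots, and no gene is filled in the other 3 comparisons.

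The rest of the pathway was taken from a list of 69 genes by role, 68 of which were tested (*Igfbp1* was not) and 58 of which were not among the 10. Between the WT depots 13 of these 58 passed, 8 higher and 5 lower in BAT, a share close to the 24.8% of all probes, and their median difference was -0.24. The 6 with the smallest adjusted p were spread over several steps. The adaptors *Sh2b2* (2.73, SE 0.39, adjusted p = 0.0032) and *Sh2b1* (1.31, SE 0.22, 0.0047), which bind activated receptor kinases, were higher in BAT. The phosphatase *Phlpp1*, which removes phosphate from AKT, was higher (1.72, SE 0.22, 0.0025), whereas the receptor phosphatase *Ptprf* was lower (-4.14, SE 0.69, 0.0046). *Mtor*, the kinase of the TOR complexes, was higher (1.97, SE 0.47, 0.014), and the IGF carrier *Igfbp4* was lower (-2.16, SE 0.46, 0.010).

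By role, with the 10 genes counted in and set against the 24.8% of all probes called, 3 of 11 ligands and carriers passed (*Igf1*, *Igfbp4* and *Igfbp7*), all lower in BAT, with a median difference of -1.91. Of the 5 receptors none did, and 1 had an unadjusted p under 0.05, where 40.1% of all probes had one. Of 10 adaptors 4 passed, 3 of them higher. Of 9 PI3-kinase and AKT genes only *Akt2* did, while *Akt1* differed by -0.24, which did not pass the threshold. Of 14 inhibitors 4 passed, 2 in each direction, and of 19 AKT targets and TOR components 5 passed, 4 of them higher in BAT. Ligands and carriers had 10 of 11 differences below 0, beside the stromal markers that were also lower in BAT.

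**Figure D5:**
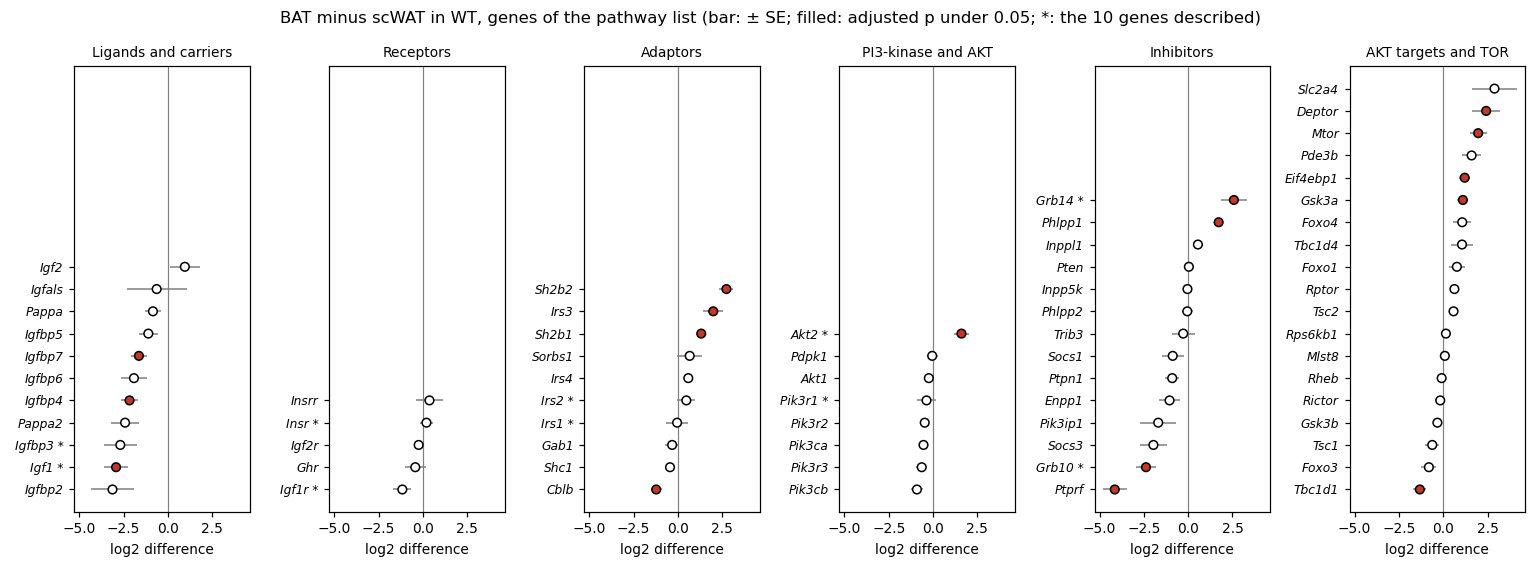
Difference between BAT and scWAT in WT (x axis, log2, ± SE) for the tested genes of the pathway list except 1, in a panel for each role, filled where the adjusted p was under 0.05 and starred for the 10 genes described. The filled ligands and carriers all lie below 0, no receptor is filled, and the adaptors and inhibitors hold filled points on both sides.

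Between genotypes in scWAT 3 of the 58 passed, all higher in Lr11 -/- mice, where 5.27% of probes were called. They were *Sh2b2* (1.91, SE 0.39, adjusted p = 0.037), *Sh2b1* (0.90, SE 0.22, 0.048) and *Eif4ebp1* (1.39, SE 0.31, 0.042), the last a repressor of translation that TOR inactivates. These calls depended on the BAT arrays in the fit. With only the 2 scWAT groups compared, 0 of the 32121 probes passed, so none of these genes did. Each of these 3 was also higher in WT BAT than in WT scWAT, a comparison that shares the WT scWAT arrays, so the 2 results are not independent. None of the 58 passed between genotypes in BAT, between the depots of Lr11 -/- mice or in the difference of the genotype effects, where 0, 7 and 4 had an unadjusted p under 0.05. The shares of all probes were 2.12%, 9% and 11%, so these counts were near or below the background.

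The genes whose levels ran closest to those of the 3 most variable members were sought among 14702 genes over the 12 arrays, which share slides and groups, so that the correlations are descriptive. *Igf1* ran closest with *Clmp* (Pearson r = 0.982), a junction adhesion protein first described in adipocyte differentiation, *Poglut3* (0.962) and *Jpt1* (0.961). *Clmp* had group means of 1.35 in WT scWAT, -0.07 in Lr11 -/- scWAT, -1.58 in WT BAT and -1.12 in Lr11 -/- BAT, in the same order as *Igf1*. *Igfbp3* ran closest with *Cpt1c* (0.955), *Larp6* (0.947), which binds collagen mRNAs, and *Spon1* (0.943), a matrix protein. *Grb14* ran closest with *Mblac2* (0.980), *Itpk1* (0.977), an inositol phosphate kinase, and *Odf3l1* (0.976).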

How the data were processed

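The authors deposited single-colour intensity values from Agilent Feature Extraction (10.10.1.1 per the file headers), background-subtracted and detrended within each array, neither normalized between arrays nor in log2. Outlier spots were left out, log2 values of the same probe were averaged, and the 75th percentile of each array (373.7 to 632.4) was subtracted. A probe was tested where some group had it well above background on each of its 3 arrays, which left 32121. Gene symbols came from RefSeq accessions matched to a table of assembly GRCm38.p6. Replicate numbers are names in accession order.

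All 12 arrays entered 1 limma fit (lmFit and eBayes, limma 3.58.1, R 4.3.3, data.table version 1.17.8) with 4 group means. Adjusted p-values are Benjamini-Hochberg over all tested probes, called under 0.05. A two-sided exact permutation test was run on single genes. The steps were tested on simulated data with the same spread in all 4 groups and no array series or slides. That simulation therefore could not test the effect of unequal spread or of slides. Figures used Python 3.11.15 with matplotlib 3.10.9 and pandas 2.3.3. Promoters are from RefSeq (the table does not list *Insr*).

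The named genes are the 10 members, *Sorl1* as the genotype check, at most 6 called pathway genes per comparison by smallest adjusted p, and the 3 genes most like each of the 3 most variable members. *Igfbp7* and *Akt1* were chosen after their values were seen. 1 pathway gene enters the counts but is not reported here. The members, lists and tests were chosen with earlier results of these data known. Marker lists for B and T lymphocytes, epithelium and endothelium were also computed. Their ranges over the 12 arrays were -4.15 to -2.25, -3.26 to -0.38, -4.59 to 1.54 (highest in Lr11 -/- scWAT replicate 1) and 1.39 to 2.48. 1 macrophage marker was not matched to a probe.

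Alternatives were other scalings, filters and background corrections, outlier spots kept, array series or slide as a block, each series alone, array weights, trend and robust eBayes, only the 2 groups compared, all probes of a gene, other thresholds and each array left out. Chosen after seeing the data were the muscle covariate, the 5 muscle-high arrays left out, and Lr11 -/- scWAT replicates 2 and 3 left out together.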

Additional observations from a re-analysis of the deposited data

How the results depend on the processing

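Of the 1490 alternative values of the 10 genes, none turned the sign of a value that passed the threshold in either fit, and 88 had another sign where neither did. Between the WT depots, 4 genes were called as reported, 1 with the slide as a block and 2 with only the 2 groups compared. The shares of all tested probes called were 24.8%, 12.4% and 12.2% in these fits. When single arrays were left out, 0 to 6 genes were called, with shares between 10.2% and 31.9%. Without scaling between arrays, 3 were called, all lower in BAT, where 22.4% of all probes passed. The median difference of all probes was -0.25 in that fit and 0.07 as reported. With each array's median subtracted it was 0.20, and 4 genes were called, where 24.1% of all probes passed. In scWAT between genotypes, 0 genes were called as reported, 4 in the later array series alone, 3 with array weights (*Igfbp3*, *Grb10* and *Akt2*), 2 without the muscle-high arrays, 3 at an unadjusted p under 0.05, and 0 to 3 when single arrays were left out. The calls among all 32121 probes moved as widely, from 1692 as reported to 7259 in the later series, 3651 with array weights, 3585 without the muscle-high arrays, and 3 to 6371 when single arrays were left out. With only the 2 groups compared there were 0, and without WT BAT replicate 3, an array outside this comparison, 145. For the difference of the genotype effects the counts were 0 as reported, 1 in the later series alone, 1 at an unadjusted p under 0.05, and 0 to 1 when single arrays were left out. Between the Lr11 -/- depots 1 gene was called without scWAT replicates 2 and 3 and 0 otherwise, and between genotypes in BAT 0 in every setting. The cause of these shifts was not tested. No paired analysis was possible because the labels carry no replicate numbers. With 3 arrays per group, and *Grb10* and *Igfbp3* dim in several groups, small differences were not detectable.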
